A study of Mus musculus with 16 samples.

Results

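Chemokine receptors and related positioning receptors steer B cells between the follicle, the T cell zone, the marginal zone and the blood. Of 10 genes listed for this group, 9 had a row in both deposited count tables, out of 22675 genes found in both: Ccr6, Gpr183, Cxcr5, Ccr7, Cxcr4, S1pr1, S1pr4, Ackr2 and Cnr2. P2ry8 had no row in either table and was not analysed here. The members were chosen by name, with earlier results of these data known, and all 9 with a row passed the filter on low counts. Messenger RNA was sequenced with Smart-seq2, which amplifies full-length cDNA, from about 1000 sorted spleen cells per library.

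All mice were C57BL/6, carried AID-Cre, B1-8hi and GFP, and were immunized with NP-OVA, LPS and Alum 7 days before. B1-8hi is a heavy chain that binds the hapten NP, AID-Cre ties Cre to a gene of activated and germinal center B cells, and ZSDAT is an allele of Zfp318 that carries tdTomato. The sort kept B220+ CD38+ cells that bound NIP and were negative for IgD, GL7, FAS and CD138, which is a memory-type phenotype. Cells of Zfp318ZSDAT/+ mice gave HetTN (no tdTomato) and HetTP (with tdTomato), and cells of Zfp318ZSDAT/ZSDAT mice gave KOTN and KOTP in the same way. Each of the 4 groups had 4 libraries. Age, sex and the number of mice behind a library are not given in the sources used here, so the spread behind each p-value is that between libraries, which may be technical.

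Most of these receptors signal through inhibitory G proteins, and a cell moves toward the source of whichever ligand it senses. CXCR5 reads CXCL13 in the B cell follicle, CCR7 reads CCL19 and CCL21 in the T cell zone, and GPR183 (EBI2) reads oxysterols at the follicle edge. S1PR1 draws cells out of the tissue toward sphingosine-1-phosphate in blood and lymph. ACKR2 differs, since it takes up and degrades inflammatory CC chemokines without G protein signaling.

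Ccr6, Gpr183 and Ackr2 are shown first as sequence because they were the 3 members called in both genotype comparisons. The windows run from 250 bases before to 50 bases after the annotated start and are printed 5′ to 3′ on the gene's strand, from RefSeq on GRCm38.p6. Their positions are chr17:8235793-8236092 on the plus strand for Ccr6, chr14:121965144-121965443 on the minus strand for Gpr183 and chr9:121898105-121898404 on the plus strand for Ackr2. Capitals mark matches, on either strand, to 7 short motifs searched by letters: the octamer ATTTGCAT, the GC box GGGCGG, the KLF box CACCC, the PU.1 core GAGGAA, the E box CANNTG, the TATA box TATAAA and, given by name alone, an NF-kB motif.
Ccr6: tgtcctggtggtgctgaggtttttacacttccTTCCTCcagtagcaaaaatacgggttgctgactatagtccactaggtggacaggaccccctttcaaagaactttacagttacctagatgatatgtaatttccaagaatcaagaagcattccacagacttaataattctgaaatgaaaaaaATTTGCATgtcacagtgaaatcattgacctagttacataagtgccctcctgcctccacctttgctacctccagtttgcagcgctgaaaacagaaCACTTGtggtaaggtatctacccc
Gpr183: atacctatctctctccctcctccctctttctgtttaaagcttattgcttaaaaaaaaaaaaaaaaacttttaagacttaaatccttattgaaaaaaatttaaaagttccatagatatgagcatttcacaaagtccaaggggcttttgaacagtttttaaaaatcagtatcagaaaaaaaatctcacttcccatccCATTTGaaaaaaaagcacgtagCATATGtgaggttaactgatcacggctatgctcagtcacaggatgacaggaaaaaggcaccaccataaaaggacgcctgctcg
Ackr2: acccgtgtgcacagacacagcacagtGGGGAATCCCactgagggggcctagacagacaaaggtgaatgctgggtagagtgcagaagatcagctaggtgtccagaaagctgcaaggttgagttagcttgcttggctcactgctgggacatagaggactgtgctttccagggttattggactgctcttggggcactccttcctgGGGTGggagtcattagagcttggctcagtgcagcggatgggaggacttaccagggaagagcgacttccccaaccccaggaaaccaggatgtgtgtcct
The table holds a second Ccr6 start, not printed, whose window (chr17:8242276-8242575) held 2 E boxes and 1 NF-kB motif. The printed Ccr6 window held 1 octamer, 1 PU.1 core and 1 E box, the Gpr183 window 2 E boxes, and the Ackr2 window 1 KLF box and 1 NF-kB motif. No motif was shared by the 3 printed windows. Of 32851 promoter windows of the same length, 1.74% held an octamer, 28.3% a PU.1 core, 72.3% an E box, 57.5% a KLF box and 20.7% an NF-kB motif. GC content was 42.3% for Ccr6, 35.3% for Gpr183 and 55.7% for Ackr2, against a median of 52.7% over all windows. A match describes letters, not a bound factor. Windows were found for 6 members, and the names not matched were Cxcr5, Ccr7 and S1pr1.

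Total counts ran from 7748787 to 15742445 per library. Zfp318, the targeted gene, had between 71 and 153 CPM, which are counts scaled by each library's total count and its TMM factor, in the 8 heterozygous libraries and between 0.468 and 5.83 in the 8 homozygous ones. All 10 listed B cell markers were detected in every library. They ran from Pax5 at 29.5 to 202 CPM to Cd79a, a signaling chain of the B cell receptor, at 3450 to 7220 CPM. Heterozygous libraries varied more among themselves: libraries of a group correlated in log2 CPM with a median of 0.766 in HetTN and 0.797 in HetTP, against 0.960 in KOTN and 0.959 in KOTP. The coefficient of variation between libraries, as edgeR estimates it per genotype, was 0.98 in heterozygous and 0.211 in homozygous libraries. The main fit of all 16 libraries shares 1 estimate of the spread between the genotypes. Each genotype was deposited in its own table, so genotype cannot be told apart from anything that differed between the tables. The sort also used IgD, whose expression depends on Zfp318, and in these bulk libraries fewer cells of a type and less RNA per cell cannot be told apart.

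Levels of different receptors were compared as CPM per kilobase of coding sequence, given here as mean ± SD over 4 libraries. In HetTN cells S1pr1 was the most abundant at 214 ± 12, then Ccr6 at 165 ± 37.3, Ccr7 at 146 ± 24, Gpr183 at 125 ± 41.6, Cxcr5 at 120 ± 31 and S1pr4 at 90.1 ± 67.5. From Ccr6 to S1pr4 each neighbour in that order lay within the SDs. Ackr2 at 20.5 ± 13.6, Cxcr4 at 13.1 ± 8.23 and Cnr2 at 12.2 ± 6.66 formed a lower tier whose SDs also overlapped. HetTP cells had Cxcr5 first at 219 ± 37.5, followed by S1pr1 at 176 ± 53.9, Ccr7 at 157 ± 41.3 and Ccr6 at 149 ± 21.1, each within the SDs of its neighbour.

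The order at the top was different in homozygous cells. Ccr6 was highest, at 631 ± 52 in KOTN and 750 ± 13.6 in KOTP, and stood at or above 96.9% and 97.3% of 10148 genes ranked per length, against 90.5% in HetTN and 89.8% in HetTP. Gpr183 came next at 395 ± 13.9 and 425 ± 4.85, and its SDs overlapped neither those of Ccr6 nor those of S1pr1 at 244 ± 16 and 213 ± 6.98. S1pr1, Cxcr5 and Ccr7 were neighbours within their SDs in KOTP cells, with Cxcr5 at 213 ± 22.5 and Ccr7 at 192 ± 23.1. Ackr2 reached 93.3 ± 8.95 in KOTN cells, at or above 84.8% of genes, against 57.7% in HetTN cells. In KOTP cells it stood at or above 79.8% of genes, against 38.4% in HetTP cells. Cxcr4, the CXCL12 receptor, was the lowest member in KOTN at 6.27 ± 1.13 and in KOTP at 7.74 ± 0.777.

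**Figure D1:**
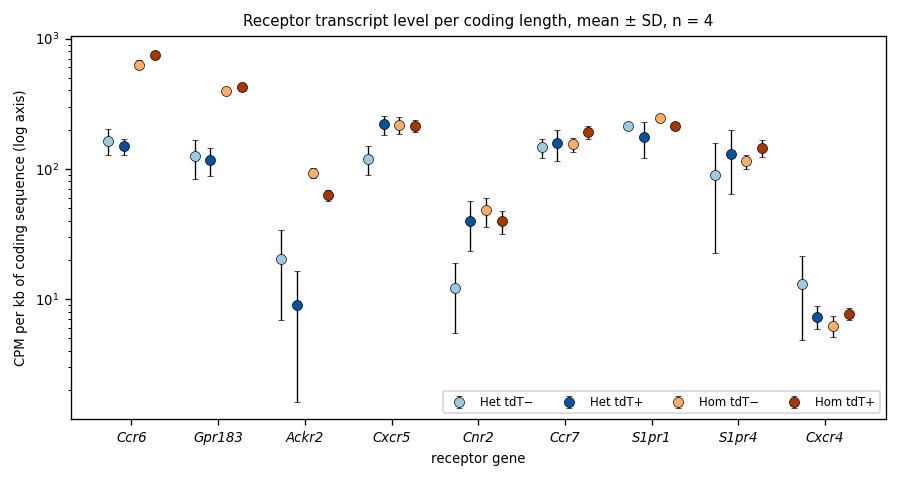
Mean CPM per kilobase of coding sequence (log axis) of each receptor in the 4 groups, with bars of ± 1 SD over 4 libraries. Ccr6 stood at 631 and 750 in the homozygous groups and Gpr183 at 395 and 425, above every other receptor there, while S1pr1 lay between 176 and 244 in all groups.

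The comparison of KOTP with HetTP asks how reporter-positive cells differ when both Zfp318 alleles are ZSDAT. Ccr6 was 5.03-fold higher, Gpr183 3.67-fold and Ackr2 6.9-fold higher in KOTP cells, and the other 6 members were not called. In edgeR's quasi-likelihood test over all 16 libraries, 3 of 9 members passed an adjusted p of 0.05, all higher, against 10.3% of the 10687 genes tested (5.06% higher, 5.22% lower). The same 3 had KOTP libraries that did not overlap the HetTP libraries, against 20.1% of all genes in either direction. The members' median log2 change was 0.28 and that of all genes -0.03.

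The comparison of KOTN with HetTN asks the same of reporter-negative cells. Ccr6 was 3.82-fold higher, Gpr183 3.17-fold, Ackr2 4.54-fold, Cxcr5 1.8-fold and Cnr2 3.94-fold higher in KOTN cells, and none was called lower. That made 5 of 9 members, against 10.5% of all genes tested (5.61% higher, 4.88% lower). The same 5 had libraries that did not overlap, against 19.7% of all genes in either direction. The median log2 change was 0.85 over the members and 0.00 over all genes.

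**Figure D2:**
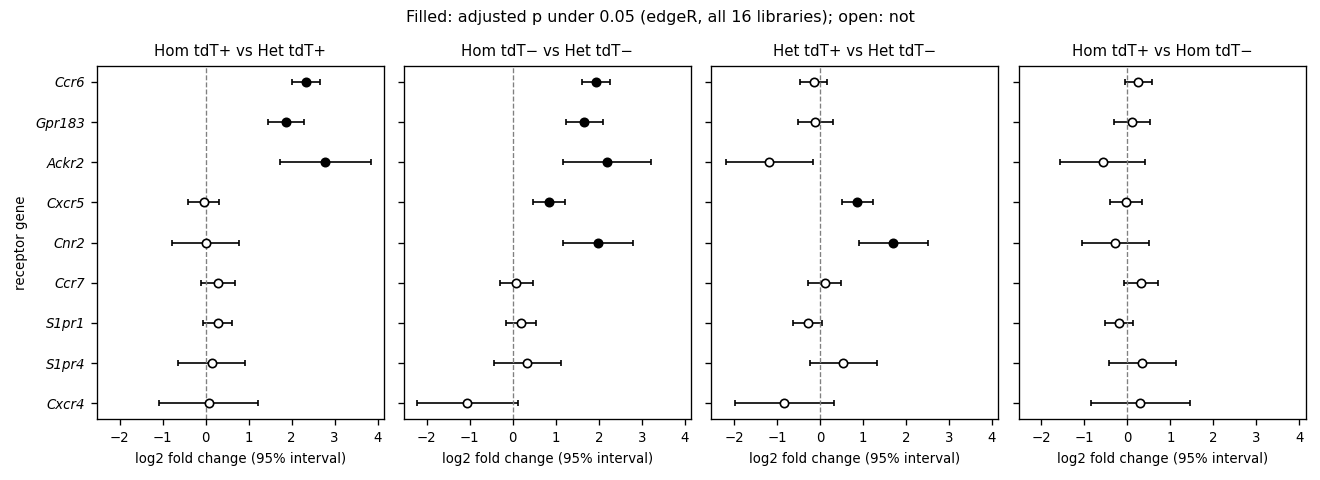
Log2 fold change of each receptor in 4 comparisons (points) with the 95% interval from edgeR's fit of all 16 libraries (bars). Filled points passed an adjusted p of 0.05: Ccr6, Gpr183 and Ackr2 in both genotype comparisons, Cxcr5 and Cnr2 in KOTN against HetTN and in HetTP against HetTN, and none in KOTP against KOTN.

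Ccr6 (ENSMUSG00000040899, chr17:8236043-8257141 on GRCm38) encodes the receptor for CCL20, and memory B cells are known to carry it. Its CPM were 128, 198, 225 and 175 in HetTN and 192, 135, 162 and 168 in HetTP cells. In homozygous cells they were 778, 680, 650 and 670 in KOTN and 834, 822, 807 and 842 in KOTP. Every homozygous library lay far above every heterozygous one, with no overlap. The log2 fold change was 2.33 (SE 0.16, adjusted p = 3.17e-08) in reporter-positive and 1.93 (SE 0.15, adjusted p = 5.27e-07) in reporter-negative cells. Ccr6 was called in 18 of 18 alternative analyses of either comparison.

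Gpr183 (ENSMUSG00000051212, chr14:121952551-121965195), the oxysterol receptor that keeps activated B cells at the outer follicle, was also higher in every homozygous library. Its CPM were 181, 80.8, 158 and 115 in HetTN, 108, 116, 169 and 103 in HetTP, 421, 404, 440 and 426 in KOTN, and 454, 455, 463 and 451 in KOTP cells. The heterozygous libraries differed from each other by more than the homozygous ones did, and the genotypes did not overlap. The log2 fold change was 1.88 (SE 0.20, adjusted p = 9.98e-06) in reporter-positive and 1.66 (SE 0.20, adjusted p = 4.04e-05) in reporter-negative cells, called in 18 of 18 alternatives of either comparison.

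Ackr2 (ENSMUSG00000044534, chr9:121898355-121911074), the scavenging receptor, was scarce in heterozygous cells. Its CPM were 8.8, 11.5, 33.1 and 39.6 in HetTN and 22.3, 4.8, 10.2 and 3.96 in HetTP cells. Homozygous cells had 109, 96.8, 98.6 and 119 CPM in KOTN and 72, 63.1, 70.1 and 79 CPM in KOTP. The genotypes did not overlap, and the KOTP libraries were all below the KOTN libraries. The log2 fold change was 2.79 (SE 0.50, adjusted p = 0.0012) in reporter-positive and 2.18 (SE 0.49, adjusted p = 0.00833) in reporter-negative cells, called in 18 of 18 alternatives of either comparison.

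**Figure D3:**
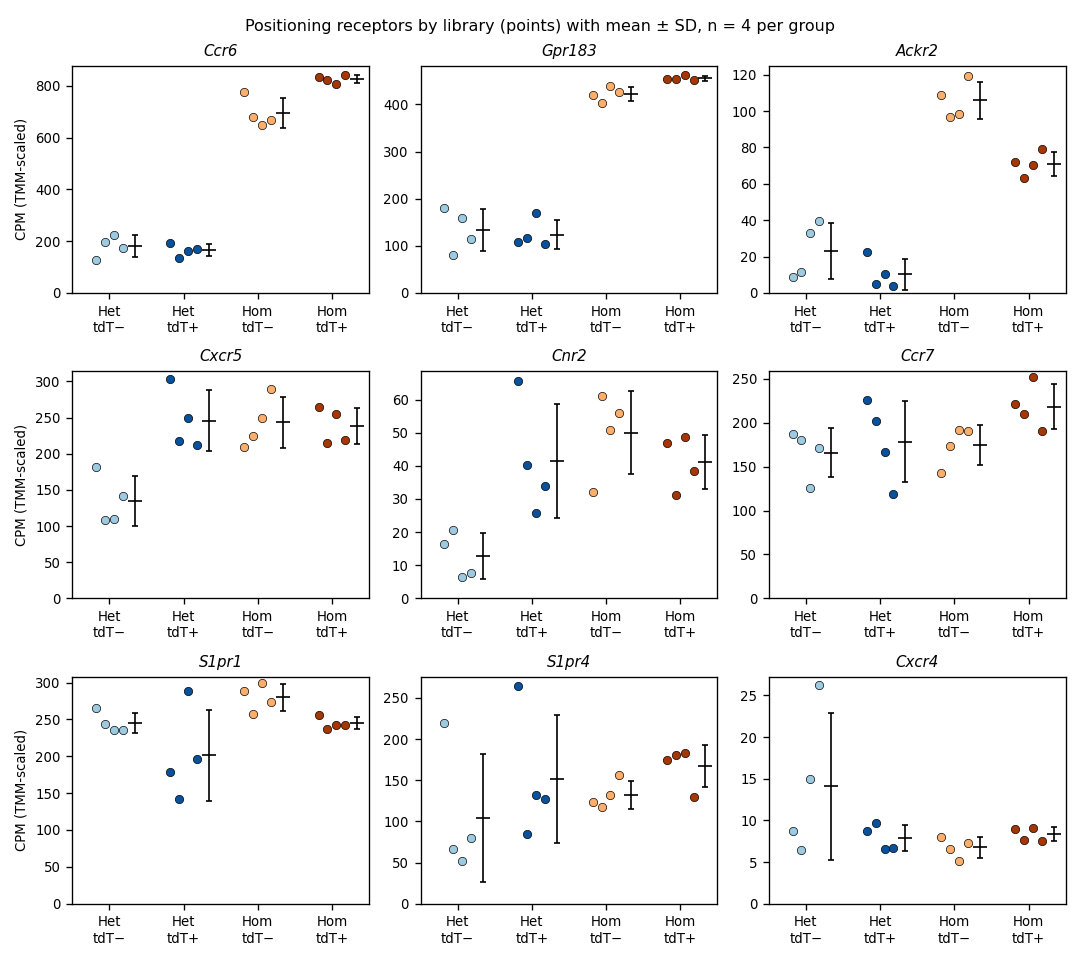
CPM scaled with TMM factors of the 9 receptors in each library (points), with mean ± SD of 4 libraries beside them, for heterozygous (Het) and homozygous (Hom) tdTomato-negative and tdTomato-positive cells. The homozygous points of Ccr6 lie between 650 and 842 and the heterozygous ones between 128 and 225, while the 4 groups overlap for S1pr4 and Cxcr4.

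Cxcr5 (ENSMUSG00000047880, chr9:44511787-44561877), the follicle-homing receptor, was low in HetTN cells alone. Its CPM were 182, 108, 110 and 141 in HetTN, 304, 218, 249 and 212 in HetTP, 210, 225, 249 and 290 in KOTN, and 265, 215, 255 and 219 in KOTP cells. All HetTN libraries were below all others, and the other groups overlapped. The log2 difference of KOTN from HetTN was 0.85 (SE 0.18, adjusted p = 0.0046), called in 18 of 18 alternatives. Between KOTP and HetTP it was -0.04, with a 95% interval from -0.41 to 0.32.

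Cnr2 (ENSMUSG00000062585, chr4:135895394-135920207) encodes the cannabinoid receptor CB2, which helps place B cells in the marginal zone and bone marrow. It had 16.5, 20.6, 6.33 and 7.5 CPM in HetTN, 65.6, 40.4, 25.8 and 33.8 in HetTP, 32.2, 61.1, 50.7 and 56 in KOTN, and 46.8, 31.1, 48.8 and 38.4 in KOTP cells. Here too the HetTN libraries lay below all others. KOTN exceeded HetTN by 1.98 on the log2 scale (SE 0.39, adjusted p = 0.00311), called in 18 of 18 alternatives. The estimate for KOTP against HetTP was -0.00, with a 95% interval from -0.79 to 0.78.

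Ccr7 (ENSMUSG00000037944, chr11:99144196-99155077), the T zone receptor, was not called in any comparison. It had 187, 180, 126 and 171 CPM in HetTN, 226, 202, 167 and 119 in HetTP, 143, 173, 192 and 191 in KOTN, and 221, 210, 252 and 190 in KOTP cells. All groups overlapped except that the ranges of HetTN and KOTP did not. The 95% interval of the log2 difference was -0.31 to 0.46 for KOTN against HetTN and -0.10 to 0.68 for KOTP against HetTP.

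Cxcr4 (ENSMUSG00000045382, chr1:128588199-128592293), which reads CXCL12 in the germinal center dark zone and bone marrow, was scarce in all groups. The highest values were 15 and 26.2 CPM in HetTN libraries 3 and 4, and the other 14 libraries lay between 5.17 and 9.74. The log2 difference of KOTN from HetTN was -1.06 (SE 0.56, adjusted p = 0.271), with a 95% interval from -2.23 to 0.11. Its counts were 46 to 290 per library, and its intervals were the widest among the 9 members in both genotype comparisons.

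S1pr1 and S1pr4, the sphingosine-1-phosphate receptors among the members, were not called in either genotype comparison with all libraries fitted. S1pr1 (ENSMUSG00000045092, chr3:115710433-115715072), the egress receptor, had 265, 244, 236 and 236 CPM in HetTN, 179, 142, 288 and 196 in HetTP, 288, 257, 300 and 274 in KOTN, and 256, 237, 242 and 243 in KOTP cells. HetTP libraries spread most, and library 3 was the only HetTP library inside the range of KOTN. The KOTP against HetTP estimate was 0.28 (adjusted p = 0.358), and without HetTP library 3 it was 0.50 (adjusted p = 0.019).

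S1pr4 (ENSMUSG00000044199, chr10:81497747-81500132), a related receptor of lymphoid cells, turned on a single library. It had 220, 65.9, 51.4 and 79.7 CPM in HetTN, 264, 84.1, 132 and 127 in HetTP, 123, 118, 132 and 156 in KOTN, and 175, 181, 183 and 130 in KOTP cells. Library 1 was the highest in both heterozygous groups. KOTN differed from HetTN by 0.34 (adjusted p = 0.667) with all libraries and by 1.01 (adjusted p = 0.0339) without HetTN library 1. HetTP differed from HetTN by 0.54 (adjusted p = 0.532) with all libraries and by 1.22 (adjusted p = 0.031) without it.

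The genotype values depend on how libraries were brought to 1 scale. The authors' deposited scores are counts over mapped reads, and the counts per mapped read differ between the tables. They amount to 1.35 to 1.5 in the heterozygous and to 0.369 to 0.419 in the homozygous table. Whether this lies in the divisor or in how the raw counts were made is not known. On the scale of the scores Ccr6 overlapped, at 205.2 to 311.4 in heterozygous and 260.0 to 308.6 in homozygous libraries. Gpr183 overlapped as well, at 108.5 to 289.4 against 144.5 to 176.1, and its mean was lower in homozygous libraries, at 163.3 against 194.7. Ackr2 lay at 6.4 to 53.3 in heterozygous and 22.4 to 47.5 in homozygous libraries. So none of the 3 members called in both genotype comparisons kept its genotypes apart on the deposited scores. Cxcr5, Ccr7, Cxcr4 and S1pr1 were lower in every homozygous library there, Cxcr5 at 72.0 to 116.0 against 144.7 to 494.3. The CPM used here divide each count by the library's total count times its TMM factor. Ratios of a pair of receptors within a library do not depend on either divisor and are given next. They still rest on the same raw counts.

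Per coding base, Ccr6 counts were 0.707 to 1.83 times those of Ccr7 in HetTN and 0.688 to 1.46 times in HetTP libraries. The same ratio was 3.49 to 5.59 in KOTN and 3.3 to 4.57 in KOTP libraries, with no overlap between genotypes. Gpr183 relative to Ccr7 was 0.475 to 1.33 and 0.503 to 1.07 in the heterozygous groups and 2.36 to 3.11 and 1.94 to 2.52 in the homozygous groups. Ackr2 relative to Ccr7 was 0.0471 to 0.262 in HetTN, 0.0237 to 0.0986 in HetTP, 0.514 to 0.762 in KOTN and 0.278 to 0.416 in KOTP libraries, again with no overlap between genotypes. Ackr2 relative to Cxcr5 was 0.0478 to 0.299 in HetTN and 0.0185 to 0.0726 in HetTP libraries. That ratio was 0.392 to 0.515 in KOTN and 0.269 to 0.356 in KOTP libraries, so the ranges of HetTN and KOTP overlapped. Relative to Cxcr5, Gpr183 was 0.786 to 1.51 in HetTN, 0.37 to 0.712 in HetTP, 1.54 to 2.1 in KOTN and 1.79 to 2.22 in KOTP. So Gpr183 exceeded Cxcr5 per coding base in every homozygous library, in HetTN libraries 1 and 3 and in no HetTP library. The ratio of Ccr7 to Cxcr5 was above 1 in all HetTN libraries, at 1.01 to 1.65, and below 1 elsewhere, at 0.553 to 0.918 in HetTP, 0.652 to 0.762 in KOTN and 0.826 to 0.98 in KOTP. These ratios are descriptions and were not tested.

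**Figure D4:**
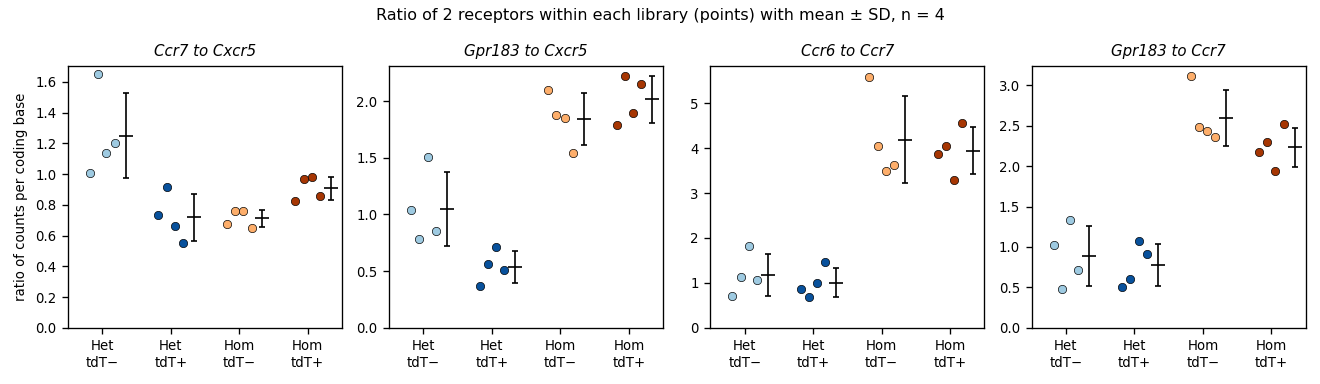
Ratio of the counts per coding base of a pair of receptors within each library (points), with mean ± SD of 4 libraries. Ccr6 to Ccr7 lies between 0.688 and 1.83 in heterozygous and between 3.3 and 5.59 in homozygous libraries, and Ccr7 to Cxcr5 exceeds 1 in the HetTN libraries alone.

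The comparison of HetTP with HetTN asks what goes with an active reporter in mice with 1 ZSDAT allele. Cxcr5 was 1.82-fold and Cnr2 3.25-fold higher in HetTP cells, with no overlap between the groups for either. With all 16 libraries fitted, these 2 of 9 members passed, both higher, against 1.07% of all genes tested (0.599% higher, 0.468% lower), and against 4.52% of all genes whose libraries did not overlap. The log2 changes were 0.86 (SE 0.18, adjusted p = 0.0251) for Cxcr5 and 1.70 (SE 0.38, adjusted p = 0.0413) for Cnr2. The spread behind these p-values also draws on the less variable homozygous libraries. Both calls were lost in edgeR's fit of the 8 heterozygous libraries alone (adjusted p = 0.761 and 0.798), which called 0 of all genes, and in voom with sample weights (adjusted p = 0.621 for each).

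Leaving out HetTN library 3 or HetTP library 1 also ended both of those calls, with adjusted p = 0.05 and 0.0545 for Cxcr5 and 0.0633 and 0.0795 for Cnr2. Cnr2 was lost too without HetTN library 4 (0.0613) or HetTP library 2 (0.0544). This comparison shares the HetTN libraries with that of KOTN, so their low Cxcr5 and Cnr2 values enter both. The other members were not called: the median log2 change was -0.11 over the members and 0.02 over all genes. Ackr2 had an estimate of -1.18 (adjusted p = 0.217), with an interval from -2.19 to -0.17, and its libraries overlapped.

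KOTP against KOTN asks the same of mice with 2 ZSDAT alleles. In edgeR's fit of all 16 libraries 0 of 9 members were called, against 0.0187% of all genes. None had an unadjusted p under 0.05, against 1.56% of all genes. The spread behind these p-values also draws on the more variable heterozygous libraries. DESeq2 called 0, while voom with sample weights and edgeR's fit of the 8 homozygous libraries called 2, against 2.37% of 9974 genes called in the latter. Those were Ackr2, lower in KOTP by a log2 change of -0.56 (SE 0.11, adjusted p = 0.00278), and Ccr6, higher by 0.26 (SE 0.07, adjusted p = 0.0343). With each homozygous library left out of that fit, Ackr2 was called in 8 of 8 fits and Ccr6 in 1 of 8.

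The libraries of KOTP and KOTN did not overlap for 4 members, higher in KOTP for Ccr6 and Gpr183 and lower for S1pr1 and Ackr2, against 7.26% of all genes not overlapping in either direction. The difference for Gpr183 was 0.11, with an interval from -0.31 to 0.52. The members' median log2 change was 0.11 and that of all genes -0.01.

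Whether the reporter effect differed by genotype was tested as a difference of differences, KOTP minus KOTN less HetTP minus HetTN. No member was called by edgeR, against 0.122% of all genes, and 2 had an unadjusted p under 0.05, against 9.28% of all genes. Those were Cxcr5 at -0.89 (SE 0.25, adjusted p = 0.18) and Cnr2 at -1.98 (SE 0.53, adjusted p = 0.168). DESeq2 called both (adjusted p = 0.0454 and 0.0326), against 1.84% of all genes, and without HetTN library 1 edgeR called Cxcr5 (adjusted p = 0.0434). Ccr6 and Gpr183 had differences of 0.40 (adjusted p = 0.603) and 0.21 (adjusted p = 0.926).

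Genes whose profile over the 16 libraries was most like a member's were found by the root mean square difference of log2 CPM, each profile centred on its own mean, over 7101 genes. Nearest to Ccr6 were Atp10d, a phospholipid flippase (0.31), and Ifi30, a lysosomal thiol reductase (0.34), against a median of 1.18 over all genes. Nearest to Gpr183 were Gimap7, a lymphocyte GTPase (0.28), and again Ifi30 (0.31), with a median of 1.05. Nearest to Ackr2 were the lambda light chain genes Iglc1 (0.72) and Iglv1 (0.76), with a median of 1.67. Iglc1 averaged 2900 CPM in HetTN, 1530 in HetTP, 11000 in KOTN and 11800 in KOTP cells, so unlike Ackr2 it was not lower in KOTP than in KOTN. Reads of near-identical lambda segments may be split among copies, so the values for Iglc1 and Iglv1 are uncertain.

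Among 19 other chemokine receptors, 8 were tested, and Cxcr3 alone was called, higher in homozygous cells of both kinds. Of all genes, 5.06% were higher in KOTP than in HetTP and 5.61% higher in KOTN than in HetTN cells. CXCR3 reads CXCL9 and CXCL10 and guides cells to inflamed tissue. Cxcr3 had 10.7, 15.5, 79.5 and 69.9 CPM in HetTN, 43.8, 77.2, 17.7 and 40.6 in HetTP, 605, 626, 734 and 633 in KOTN, and 533, 536, 582 and 526 in KOTP cells. The genotypes lay far apart, with log2 changes of 3.60 (adjusted p = 4.95e-04) in reporter-positive and 3.88 (adjusted p = 3.6e-04) in reporter-negative cells. The median log2 change of the 8 receptors was -1.30 and -0.23, against -0.03 and 0.00 over all genes.

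Of 31 other lipid and orphan receptors 16 were tested: in KOTP against HetTP 2 were higher and 1 lower, and in KOTN against HetTN 4 were higher. The latter count was 2 without KOTN library 2 and in the fit of the 8 compared libraries, and the library total alone left 1 higher in KOTP. Over all genes, 5.06% were higher and 5.22% lower in KOTP, and 5.61% were higher in KOTN. S1pr2, which holds germinal center B cells in the follicle, averaged 64.6 ± 22 CPM in HetTP and 8.16 ± 4.36 in KOTP cells (log2 change -2.99, adjusted p = 0.00218). S1pr5, an S1P receptor best known from NK cells, had 0 counts in all 8 heterozygous libraries. With a floor of 3 counts over the group, it was at least 51.5-fold higher in KOTP (100 counts) and at least 183-fold higher in KOTN cells (385 counts). Voom did not call S1pr5 in reporter-positive cells (largest adjusted p = 0.0792).

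Gpr171, an orphan receptor, was higher in both, by 1.10 and 0.91 on the log2 scale, though the latter held in only 8 of 18 alternatives. Lpar6, a lysophosphatidic acid receptor, was higher by 1.57 (adjusted p = 0.00896) in reporter-negative cells. Gpr55, a lysophosphatidylinositol receptor, was at least 35.1-fold higher in KOTN than in HetTN cells, which had 0 counts against 74, of which 36 came from a single library. It was not called by voom or without KOTN library 2. In reporter-positive cells the counts ran the other way, with 167 in HetTP and 33 in KOTP, and Gpr55 was not called. The list's median log2 change was 0.46 in reporter-positive and 0.97 in reporter-negative cells, the same with genes at 0 counts set to their bound.

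Downstream of the receptors, 36 of 38 G protein and migration genes were tested: 3 were higher and 8 lower in KOTP than in HetTP cells, and 5 were higher and 5 lower in KOTN than in HetTN cells. All genes gave 5.06% higher and 5.22% lower in the first comparison and 5.61% and 4.88% in the second. Without KOTP library 1, 3 or 4 the count lower in KOTP was 4, 4 and 5, and upper quartile scaling gave 6 higher. The count higher in KOTN was 3 without KOTN library 2, 3 or 4 and with voom, and 1 in the fit of the 8 compared libraries. Gnas, the stimulatory G alpha subunit, had a log2 change of -2.04 (adjusted p = 4.86e-06) in reporter-positive and -0.88 in reporter-negative cells. Gna13, a G alpha subunit, was lower by -1.42 and -1.22, and Arhgef1, a RhoA exchange factor that it activates, by -0.75 (adjusted p = 0.00167) and -0.64. Gna13 in reporter-negative cells held in 12 of 18 alternatives. Rhoh, a GTPase of blood cells, was higher by 1.22 (adjusted p = 9.17e-05) and 0.65, the latter in 15 of 18 alternatives.

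In reporter-negative cells, the smallest p-values of that list belonged to other genes. Rock1, a kinase that acts on myosin, was lower by a log2 change of -1.05 (adjusted p = 0.00111), and Gnb2, a G beta subunit, by -1.16 (adjusted p = 0.0017). Gng10, a G gamma subunit, was higher by 2.52 (adjusted p = 0.00169), though voom did not call it. The list's median log2 change was -0.22 in reporter-positive and 0.05 in reporter-negative cells.

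Desensitisation genes switch receptors off or remove them from the surface. Of 22 names, which hold the older and newer symbols of the same kinases, 19 were tested, and 5 were lower in KOTP than in HetTP and 3 lower in KOTN than in HetTN cells, none higher, against 5.22% and 4.88% of all genes lower. Without HetTP library 1 or KOTP library 1, 3 or 4 the first count was 3, 2, 1 and 3. The second was 1 without KOTN library 1, 0 without KOTN library 2, 3 or 4, and 1 with voom, upper quartile scaling, no filter or the 8 compared libraries, and without HetTN library 2 there was 1 gene higher. Rgs10, which speeds GTP hydrolysis by G alpha subunits, was lower by -1.46 (adjusted p = 0.00944) and -1.14 (adjusted p = 0.0402). Grk6, a receptor kinase, was lower by -0.81 (adjusted p = 0.015) in reporter-positive cells, and Stam, an endosomal sorting adaptor, by -2.12 (adjusted p = 0.0154). In reporter-positive cells Rgs10 held in 18 of 18 alternatives, Stam in 16 and Grk6 in 15. In reporter-negative cells Rgs10 held in 10 of 18, Arrb2 (beta-arrestin, -1.73) in 8 and the kinase Adrbk1 (-0.66) in 9. Medians were -0.10 and 0.41 on the log2 scale.

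The 33 ligands and ligand enzymes gave 16 tested genes with few calls. Against the matched heterozygous cells, 1 was higher and 1 lower in KOTP, and 1 was higher in KOTN. Over all genes, 5.06% were higher and 5.22% lower in KOTP, and 5.61% were higher in KOTN. Sphk2, a kinase that makes sphingosine-1-phosphate, was lower in KOTP cells by -1.72 (adjusted p = 0.0202), in 13 of 18 alternatives. Cxcl10 was at least 53-fold higher in KOTP cells, with 103 counts against 0, of which 66 came from a single library, and it was called in 6 of 16 alternatives. Cers2, a ceramide synthase, was higher in KOTN cells by 0.72 (adjusted p = 0.0389), in 7 of 18 alternatives. Their median was 0.23 in reporter-positive and 0.42 in reporter-negative cells.

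All 11 regulators of positioning were tested: 3 were higher and 3 lower in KOTP, and 3 higher and 5 lower in KOTN, each against the matched heterozygous cells. All genes gave 5.06% higher and 5.22% lower in KOTP, and 5.61% and 4.88% in KOTN. Klf2, a transcription factor known to drive S1pr1 in lymphocytes, had 378, 308, 326 and 343 CPM in HetTN, 397, 270, 420 and 528 in HetTP, 168, 110, 94 and 93.1 in KOTN, and 138, 171, 137 and 156 in KOTP cells. It was lower in every homozygous library, by -1.42 (adjusted p = 1.31e-04) and -1.54 (adjusted p = 8.33e-05). S1pr1 itself differed by 0.28 and 0.19 and was not called.

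Bcl6, the germinal center repressor, was lower by -1.77 and -1.91 (adjusted p = 2.88e-05 and 1.88e-05). Cd83, which marks activated and light zone B cells, was higher by 0.90 and 1.51. Tbx21 (T-bet) was higher by 3.06 (adjusted p = 0.0163) and 3.84 (adjusted p = 0.00584), and the first of these had adjusted p = 0.0501 in the fit of the 8 compared libraries. Foxo1 and Bach2 were lower in KOTN than in HetTN cells by -1.86 and -1.23 (adjusted p = 9.5e-04 and 0.00177). Their estimates in KOTP against HetTP were -0.67 and -0.26, not called, and the difference between the 2 genotype effects, which is the same as the difference of the reporter effects, had adjusted p = 0.334 and 0.268.

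The reporter comparisons gave no steady call among the 106 tested genes of the 6 lists. For HetTP against HetTN edgeR's fit of all libraries called 0 and voom 0. At an unadjusted p under 0.05 edgeR had 22, or 20.8%, near the 16.2% of all genes. DESeq2 called 10 of the 100 to which it gave an adjusted p, against 6.72% of all genes. For KOTP against KOTN edgeR called 0, with 4 (3.77%) at an unadjusted p under 0.05 against 1.56% of all genes, and DESeq2 called 0. Voom with sample weights called 11 of the 106, against 338 of all 10687 genes. The fit of the 8 homozygous libraries called 8 of 99, against 2.37% of 9974 genes.

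**Figure D5:**
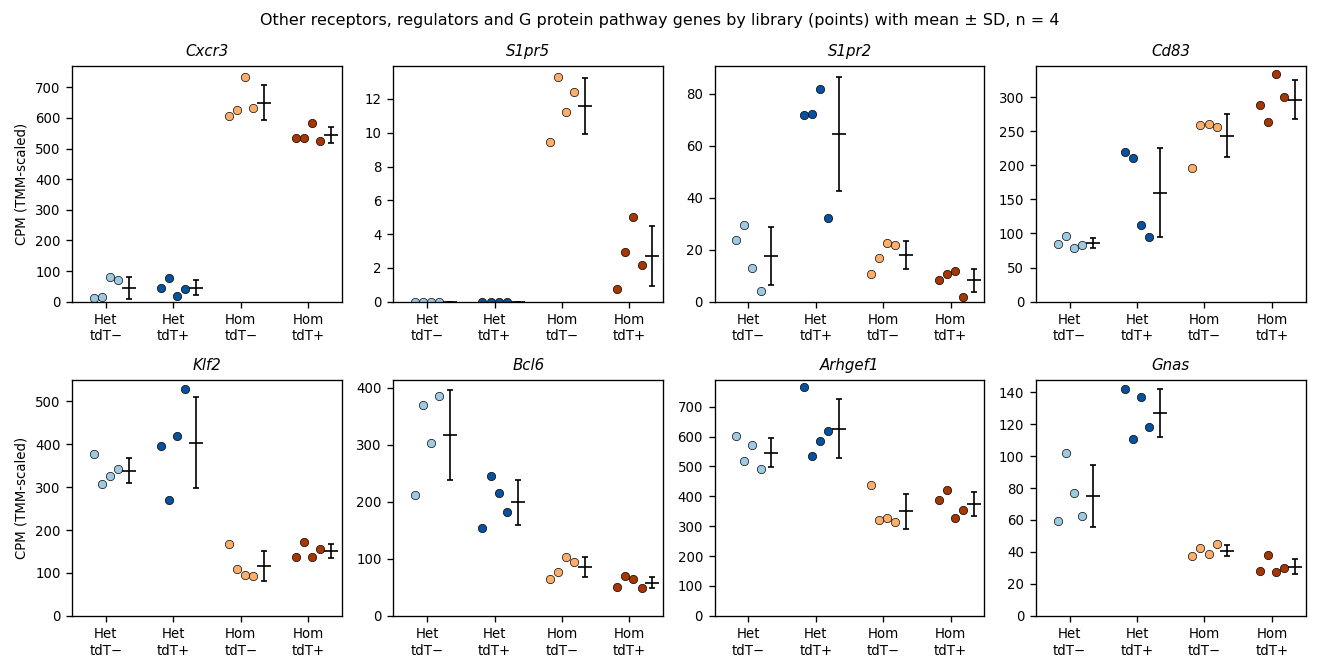
CPM of 8 genes outside the receptor group in each library (points), with mean ± SD of 4 libraries. Cxcr3 lies between 526 and 734 in homozygous and between 10.7 and 79.5 in heterozygous libraries, S1pr5 is at 0 in all heterozygous libraries, and Klf2 and Bcl6 are lower in every homozygous library.

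Markers of other cells moved with genotype. Beside the counts below, 5.22% of all genes were lower in KOTP than in HetTP and 4.88% lower in KOTN than in HetTN cells. The summed level of 13 T cell markers was 290 to 546 CPM in HetTN and 205 to 724 in HetTP, against 29.6 to 39.6 in KOTN and 40.2 to 50 in KOTP libraries, and 3 of 6 tested were lower in each genotype comparison. Trac lay at 101 to 380 and 111 to 433 CPM in the heterozygous groups and at 0 in all homozygous libraries except KOTP library 3, at 0.228. Trbc2 and Lck were detected in every heterozygous library. Cd3d, Cd3e, Cd3g and Cd8a reached 0 in both heterozygous groups, with highest values of 30, 10.6, 21.9 and 10.3 CPM. Cd3e was at 0 in HetTN library 3 and HetTP libraries 1, 2 and 4, where Trac had 284, 350, 162 and 111 CPM. Cd4 and Cd28 were at 0 in all libraries. The 14 macrophage markers summed to 512 to 1430, 135 to 762, 112 to 160 and 82 to 112 CPM in HetTN, HetTP, KOTN and KOTP, with 6 and 7 of 12 tested lower. Adgre1 of that list ran the other way, at 0 to 21.8 CPM in heterozygous and 32.8 to 55.5 in homozygous libraries, and was not called. Cd68 overlapped between HetTN (36.6 to 71.2) and KOTN (40.9 to 52.3).

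Germinal center markers, a list that shares S1pr2, Bcl6 and Bach2 with those above, summed to 891 to 1340, 717 to 1160, 517 to 621 and 342 to 425 CPM, with 5 of 11 lower in each genotype comparison. The shares of all genes were 5.06% higher and 5.22% lower in KOTP, and 5.61% and 4.88% in KOTN. Cell division markers summed to 1280 to 1950, 991 to 2280, 610 to 758 and 424 to 507 CPM, with 9 of 10 lower in each. B cell markers summed to 12700 to 16400, 11000 to 13600, 17400 to 18000 and 17700 to 19500 CPM, with 6 of 10 and 5 of 10 higher and 1 lower in each. The lower marker was Pax5, by -1.54 in reporter-positive and -1.61 in reporter-negative cells. Dendritic cell and neutrophil markers summed to 65.7 to 344, 69.2 to 145, 116 to 139 and 101 to 126 CPM, with 1 of 7 higher in KOTP and, in KOTN, 1 higher and 1 lower. Itgax, the integrin CD11c, had 1030 counts in KOTN, 538 in KOTP and 612 in HetTP against 2 in HetTN cells. In edgeR's fit of all libraries Itgax was also called higher in HetTP than in HetTN (adjusted p = 3.91e-05). Its reporter effect differed between the genotypes (adjusted p = 7.4e-05), and it was not called in KOTP against HetTP. Plasma cell markers summed to 1200 to 2300, 932 to 992, 1190 to 1340 and 1110 to 1220 CPM, with 3 of 8 lower in each genotype comparison and 1 higher in KOTP. Jchain, the joining chain of secreted antibodies, was lower by -4.44 (adjusted p = 2.24e-05) and -2.78 (adjusted p = 8.98e-04), and Mzb1 was higher in KOTP by 0.82 (adjusted p = 6.45e-04). The part of these marker differences in the receptor results was not tested.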

How the data were processed

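Smart-seq2 libraries came from about 1000 sorted cells, per the labels' protocols. Per the submitters' processing notes, reads went through Trim Galore, STAR 2.2.0 on mm10 and featureCounts; strand, read-pair and multi-mapping settings are not given in the sources used here, so antisense or near-identical genes may share counts. The authors deposited 1 table per genotype with raw counts per gene over coding sequence, per the file headers. Beside them the authors deposited per-million values, treated here as a score because the counts per unit of their divisor differ between the tables. Of 22680 entries per table, 4 with duplicated names and 1 without a partner were left out.

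Counts were scaled with TMM and tested with edgeR 4.0.16 (quasi-likelihood, robust, filterByExpr, group means of all 16 libraries, R 4.3.3). The 10687 genes tested were adjusted together by Benjamini-Hochberg, and a gene was called below 0.05. Intervals are 95%. Alternatives were other scalings and filters, DESeq2 1.42.0, limma 3.58.1 voom, the compared libraries alone, a replicate block and leave-outs; voom with 1 weight per genotype and the homozygous leave-outs were added after seeing the data. The script was tested on simulated data. Symbols were matched to GENCODE on GRCm38 for 88.8% of genes. Low even counts were frequent: 55.9% to 85.2% of counts from 1 to 20 were even in heterozygous and 81.1% to 83.4% in homozygous libraries.

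The members and lists were chosen with earlier results of these data known. Named are all members, up to 3 called genes per list and genotype comparison with the smallest p, other called genes that a sentence on them turns on (Arhgef1, Gna13, Foxo1, Bach2, Tbx21, Arrb2), and the 2 genes most like each member called in both genotype comparisons. An item that this rule would name is not reported here.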

Additional observations from a re-analysis of the deposited data

Results flagged for a closer look

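The members' CPM were checked for libraries that stand apart in 36 groups of 4 with Dixon's test, which sets the gap to the nearest library against the group's range. Chance gives such a gap in about 1 in 20 groups, and 2 were found, both for S1pr4. HetTN library 1 had 220 CPM, with the other libraries at 51.4 to 79.7 (gap over range 0.832). KOTP library 4 had 130 CPM, with the others at 175 to 183 (0.857).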

How the results depend on the processing

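The calls of Ccr6, Gpr183 and Ackr2 in both genotype comparisons, and of Cxcr5 and Cnr2 in KOTN against HetTN, held under all 18 alternatives each. No alternative used the deposited scores. On those scores the genotypes overlapped for Ccr6, Gpr183, Ackr2 and Cnr2, and Cxcr5 was lower in every homozygous library. For HetTP against HetTN the 2 called members became 0 under voom with sample weights, voom with 1 weight per genotype and the 8 libraries compared, and 0 to 3 with a library left out. For KOTP against KOTN the 0 called became 2 under those same 3 settings. For the difference of the reporter effects 0 became 2 with DESeq2, and 0 to 1 with a library left out. Leaving out a library gave 3 to 4 in KOTP against HetTP and 5 to 6 in KOTN against HetTN. Causes were not tested.

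Same-numbered libraries of 2 groups correlated at -0.03 to 0.09 in their deviations from group means. The labels do not say whether same-numbered libraries share a mouse, and correlations this low cannot settle it. With a replicate block HetTP against HetTN had 0 members called (Cxcr5 adjusted p = 0.052, Cnr2 0.0653), and the other counts stayed at 0, 3, 5 and 0; Cnr2 in KOTP against HetTP was 0.08.

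Log2 estimates that changed sign all belonged to members not called. In KOTP against HetTP, upper quartile scaling gave 0.10 for Cnr2 and 0.06 for Cxcr5, the library total alone -0.15 for Cxcr4 and -0.09 for S1pr4, and Cnr2 was 0.00 with no filter, 0.06 with voom and 0.11 with voom weighted by genotype. With the library total alone, Ccr7 in KOTN against HetTN was -0.02 and the S1pr1 difference of reporter effects -0.04. With a library left out, KOTP against HetTP ran from -0.18 to 0.31 for Cnr2, -0.11 to 0.08 for Cxcr5, -0.01 to 0.19 for Cxcr4 and -0.07 to 0.55 for S1pr4. Ccr7 ran from -0.04 to 0.16 in KOTN against HetTN and -0.04 to 0.26 in HetTP against HetTN. Gpr183 ran from -0.30 to 0.08 in HetTP against HetTN, Cxcr5 from -0.10 to 0.06 in KOTP against KOTN, and the difference of reporter effects from -0.04 to 0.32 for S1pr1 and -0.88 to 0.22 for S1pr4.

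Over all genes, HetTP against HetTN gave 114 calls, 709 with DESeq2, 4 with voom, 0 in the 8 libraries and 23 with the block. KOTP against KOTN gave 2 calls, 11 with DESeq2, 338 with voom and 236 in the 8 libraries, and the difference gave 13, or 194 with DESeq2. The share of calls that were higher in KOTP than in HetTP was 49.2%, or 59.6% with upper quartile scaling and 27.7% with the library total alone, which shifted the median of all genes to -0.25. In KOTN against HetTN it was 53.5%, 63.5% and 43.1%, and in HetTP against HetTN 56.1%, or 76.6% with the library total alone.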
